A study of Mus musculus with 16 samples.

Results

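The genes described are 9 genes of bone morphogenetic protein (BMP) signalling, read in mouse blastocysts. Each was represented by every probe set of the Affymetrix 430A, 430B and 430 2.0 arrays whose platform annotation names that gene alone, which gave 20 probe sets. The arrays name 18193 genes in this way. The set was chosen by the Bmper signal, which was lower with SP600125 and U0126 than in the control group in these same samples, so the Bmper values are a description and carry no test. The other 8 genes, Bmp4, Bmpr1a, Bmpr2, Smad1, Smad5, Smad6, Id1 and Id3, were taken for their place in the same pathway.

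Total RNA came from blastocysts, the stage at which an outer trophectoderm encloses a fluid cavity and the inner cell mass. One group (labelled WT) has no treatment named and served as the control, and the others received an inhibitor: SB203580 at 20 µM, SP600125 at 25 µM, or U0126 at 20 µM. SB203580 is used against p38 kinases, SP600125 against JNK, and U0126 against MEK, the kinase upstream of ERK. Each group held 3 samples. Replicate 1 was labelled by a small sample assay and read on a 430A and a 430B array, and replicates 2 and 3 were labelled by a two-cycle assay and read on 430 2.0 arrays. The sources used here do not give strain, embryo age, embryos per sample, length of treatment or solvent. Whether the replicates came from separate cultures is not stated either, and p-values here therefore measure only sample-to-sample spread, which may be technical.

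BMP ligands are secreted proteins that bring together type I and type II receptor kinases at the cell surface. The type I receptor then phosphorylates Smad1 or Smad5, which enters the nucleus with Smad4 and raises targets such as the Id genes and, as a brake on the pathway, Smad6. Bmper is a secreted cysteine-rich protein that binds BMPs outside the cell and can dampen or support their signal. In the early mouse embryo Bmp4 is known as a product of the inner cell mass and epiblast that acts on the extraembryonic tissues.

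Trophectoderm, inner cell mass and primitive endoderm markers were all above the signal threshold of the tests in every list, whose 7, 6 and 16 genes summed to 93204 to 112471, 12374 to 18086 and 34695 to 53248 on the 430 2.0 arrays. Lists of oocyte, cumulus and granulosa cell, and uterine and oviduct genes summed to at most 497 there. The blood and immune cell list summed to 2034 and 1988 with SP600125 and to 669 to 1379 in the other groups. Of that list, Laptm5 read 1604.7 and 1576.3 with SP600125 against 696.9 and 660.5 in the controls. Over all 430 2.0 arrays, Csf1r read 99.9 to 219.4, Cd68 87.4 to 223.9 and Lyz2 15.0 to 96.9. Ptprc, which defines white blood cells, read at most 85.4 there, and Hba-a1 at most 79.9. Median array signal on the 430 2.0 arrays was highest with U0126, at 77.7 and 83, against 61.1 to 68.9 elsewhere. Actin 3'/5' signal ratios, which reflect RNA and labelling quality, lay between 1.58 and 1.75 on those arrays, but on 430A they ranged from 1.62 (U0126) through 2.47 (control) and 2.81 (SB203580) to 3.66 (SP600125). Gapdh 3'/5' ratios varied more on the 430 2.0 arrays, from 2.84 (SB203580 replicate 3) to 4.8 (control replicate 2). On 430A they ran from 2.61 (U0126) to 4.03 (control).

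Differences below are on the log2(signal + 12.6) scale, taken within array type and given with their standard error (SE), with n = 3 samples per group. They understate the change of dim probe sets. Where samples of groups are said to lie apart, this rests on replicate 1 on 430A or 430B and replicates 2 and 3 on 430 2.0. The share of all probe sets so separated is not given here, so such statements only describe. A probe set passed when its adjusted p from limma was under 0.05 over the 27022 probe sets tested. A mean signal of 42.9 on the 430 2.0 arrays was needed for a test, and 18 of the 20 probe sets reached it. The 2 that did not were a Bmpr1a probe set (1445413_at, 2.4 to 28.3 over all samples) and a Smad1 probe set (1416081_at, 3.9 to 74.0).

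The windows of 250 bases before the annotated starts of Bmper, Bmp4, Bmpr1a and Id3 are shown because Bmper led to the choice of these genes and because each of the others passed the test between a pair of inhibitors. They are RefSeq sequences of build GRCm38.p6, at chr9:23222826-23223075 on the plus strand, chr14:46390670-46390919 on the minus strand, chr14:34502547-34502796 on the minus strand and chr4:136143572-136143821 on the plus strand. The Bmpr1a window lies within the annotated span of its gene. Capitals mark a match to CAGAC or its reverse complement GTCTG, the core that Smad proteins bind, or to GGCGCC, a GC-rich letter string known from BMP-responsive genes.
Bmper: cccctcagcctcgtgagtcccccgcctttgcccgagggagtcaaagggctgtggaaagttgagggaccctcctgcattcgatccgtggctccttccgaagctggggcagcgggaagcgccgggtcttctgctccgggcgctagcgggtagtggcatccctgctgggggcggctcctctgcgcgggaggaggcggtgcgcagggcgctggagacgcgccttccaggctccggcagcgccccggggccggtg
Bmp4: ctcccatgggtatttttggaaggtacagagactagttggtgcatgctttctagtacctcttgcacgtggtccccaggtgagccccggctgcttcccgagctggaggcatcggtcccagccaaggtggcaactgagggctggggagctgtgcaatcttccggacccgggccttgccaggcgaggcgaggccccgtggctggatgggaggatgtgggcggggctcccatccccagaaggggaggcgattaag
Bmpr1a: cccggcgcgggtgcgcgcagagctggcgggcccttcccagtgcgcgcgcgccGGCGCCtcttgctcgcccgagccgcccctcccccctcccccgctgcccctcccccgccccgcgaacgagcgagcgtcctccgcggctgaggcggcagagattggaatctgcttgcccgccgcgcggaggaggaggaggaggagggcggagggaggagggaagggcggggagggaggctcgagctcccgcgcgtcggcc
Id3: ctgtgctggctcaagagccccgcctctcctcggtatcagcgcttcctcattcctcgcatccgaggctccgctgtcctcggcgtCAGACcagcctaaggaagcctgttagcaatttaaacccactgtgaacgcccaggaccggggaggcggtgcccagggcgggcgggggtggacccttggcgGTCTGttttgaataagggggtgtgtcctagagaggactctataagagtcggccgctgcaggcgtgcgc
Id3 held CAGAC once on each strand, and 42.2% of the 32851 promoter windows in the table held it at least once. The Bmper, Bmp4 and Bmpr1a windows held no match to it. Bmpr1a held GGCGCC (9.6% of windows). The table has 10 windows for 8 of the 9 genes, and over these 2 held CAGAC and 3 held GGCGCC, the latter those of Bmpr1a, Bmpr2 and 1 start of Smad5. None of the 10 held the AP-1 string TGANTCA (6.7%) or the ETS string CCGGAAGT (2.9%). Each string was searched on both strands. The strings do not contain one another. A match is only a run of letters and says nothing about binding in these embryos.

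Bmper signal was lower with all 3 inhibitors than in the control group. The 430B control read 1904.9, against 549.0 for SB203580, 482.6 for SP600125 and 410.0 for U0126. Replicates 2 and 3, on 430 2.0 arrays, read 324.6 and 353.1 (control), 93.4 and 211.2 (SB203580), 67.4 and 112.6 (SP600125), and 69.5 and 129.9 (U0126). No treated sample reached a control of its array type. Among the treated groups the ranges of the 430 2.0 arrays overlapped, and replicate 2 was the lower of the pair in each.

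As log2 differences from the control group these were -1.86 ± 0.32 for SP600125, -1.86 ± 0.32 for U0126 and -1.38 ± 0.32 for SB203580. Relative to control, the mean 430 2.0 signal stood at a ratio of 0.27 with SP600125, 0.29 with U0126 and 0.45 with SB203580, and the 430B signal at 0.25, 0.22 and 0.29. From highest to lowest the order was control, SB203580, then SP600125 and U0126, which lay 0.00 ± 0.32 apart. The difference of each from SB203580, -0.48 ± 0.32, rested mostly on SB203580 replicate 3 and was -0.14 without it, so the order among the inhibitors is not beyond their spread. The 3 comparisons share their control samples. Over 22 alternative settings and omissions of 1 sample, the difference stayed between -2.0 and -1.66 for SP600125, -2.10 and -1.68 for U0126, and -1.72 and -1.15 for SB203580.

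**Figure D1:**
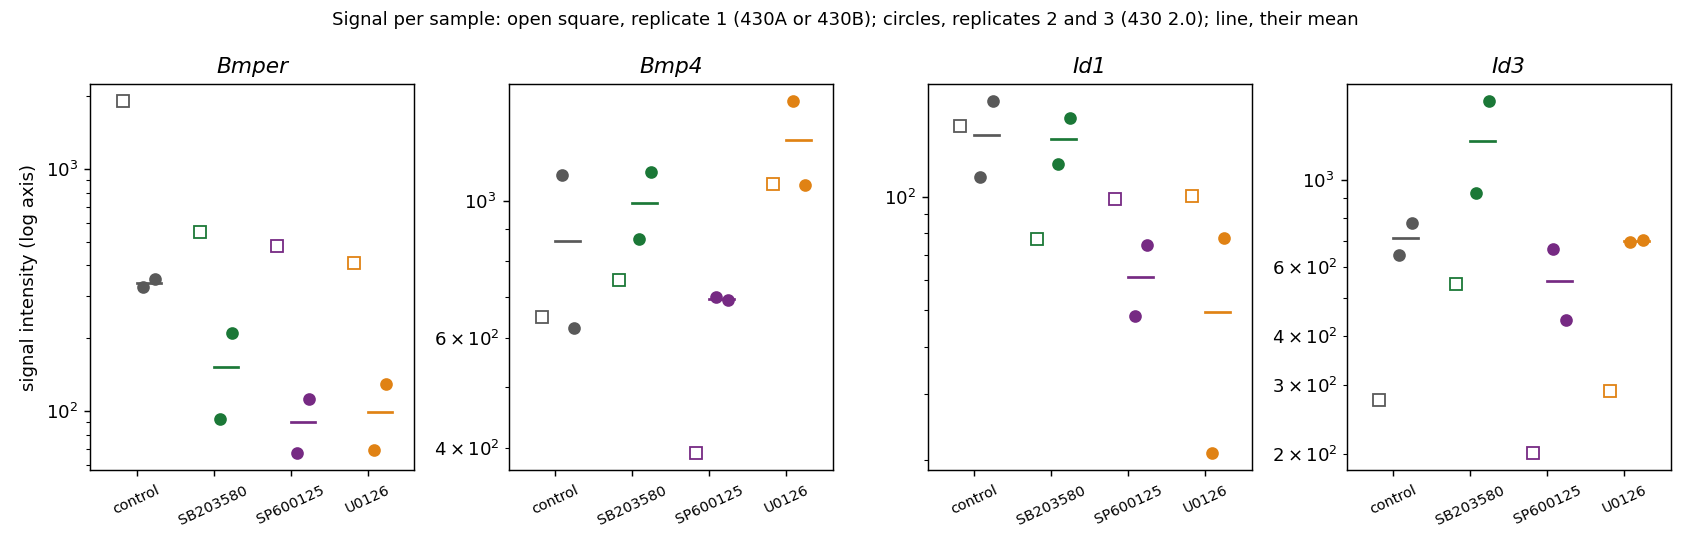
Signal intensity (log axis) of Bmper, Bmp4, Id1 and Id3 in each sample of the control, SB203580, SP600125 and U0126 groups. Open squares are replicate 1 on the 430A array (430B for Bmper), filled circles are replicates 2 and 3 on 430 2.0 arrays and lines are the means of those circles. Bmper lies under the controls of its array type in all treated samples, and Id3 is highest with SB203580.

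Some primitive endoderm markers fell as well. Their median difference from control over 16 genes was -1.29 with SP600125, -0.54 with U0126 and -0.52 with SB203580, and 10, 2 and 1 of them passed as lower. Of all 12614 tested genes, each read like these by its brightest probe set, 66, 52 and 62 passed as lower. Over all probe sets the share was 0.326%, 0.274% and 0.3%. Not every marker was lower, with Gata6 at 0.21 with SP600125 and Pdgfra at 0.27 with SB203580. The median was negative for each inhibitor with quantile normalization and with median centring too. Their summed signal on the 430 2.0 arrays was lower in every treated sample (34695 to 43804) than in the controls (50868 and 53248). Among them Col4a2 and Col4a1, which encode collagen IV chains of the basement membrane, fell with SP600125 by 1.47 ± 0.17 and 1.33 ± 0.16, and Lama1, a laminin chain gene, fell by 1.65 ± 0.21. Amn, part of an endocytic receptor, passed as lower with each inhibitor. It stood at -1.53 ± 0.26 with U0126, -1.80 ± 0.26 with SB203580 and -1.60 ± 0.26 with SP600125. Gata6, a transcription factor of the lineage, fell with U0126 by 0.60 ± 0.12. The next in rank did not pass, at -0.85 ± 0.21 for Lama1 and -1.14 ± 0.28 for Sox7 with SB203580, and -0.70 ± 0.16 for Sparc with U0126. The part of these cells in the Bmper values was not tested, and in whole embryos fewer cells of a type and less RNA per cell cannot be told apart.

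The genes whose pattern over the 12 samples was most like that of Bmper, on log2 values centred within array type, were Trim2 (r = 0.934), Eps8 (r = 0.903), Tfpi (r = 0.889), Rab10 (r = 0.886), Zfp462 (r = 0.885) and Adk (r = 0.874). They were picked for likeness among all tested probe sets that name 1 gene, so the r values only describe them, and all rest on the same 12 samples with the same 3 controls. Tfpi, which encodes a secreted inhibitor of coagulation, stood at -0.41 ± 0.16 with SB203580, -0.80 ± 0.16 with SP600125 and -0.84 ± 0.16 with U0126. Eps8, an actin regulator of growth factor signalling, stood at -0.60 ± 0.23, -0.83 ± 0.23 and -0.82 ± 0.23 in the same order. Rab10, a small GTPase of vesicle traffic, was like Bmper in shape but small in size, at -0.20 ± 0.12, -0.19 ± 0.12 and -0.28 ± 0.12. Among the other pathway members the r with Bmper was 0.74 for Id1, 0.64 for the brightest Bmpr2 probe set and -0.62 for the brightest Smad5 probe set, and between -0.18 and 0.17 for the remaining 5. These r values also only describe, since Bmper was chosen for its fall in the same samples.

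Bmpr1a, Bmpr2, Smad1, Smad5, Smad6, Bmp4, Id1 and Id3 together had 17 tested probe sets, and none of these passed against control for any inhibitor. The share of all probe sets that passed was 0.389% for SB203580, 0.592% for SP600125 and 0.448% for U0126, so a count of 0 among 17 is near that background. At an unadjusted p under 0.05, limma gave 2 of 17 for SB203580 (9.36% of all probe sets), 0 for SP600125 (8.52%) and 6 for U0126 (12% of all), and 5 of 17 for SP600125 against U0126 (17.4%). The 6 for U0126 were Bmp4, Id1, 3 probe sets of Bmpr1a and 1 of Smad5, and those of Bmpr1a read 1 gene. The 5 for SP600125 against U0126 were that of Bmp4 and otherwise only probe sets of Bmpr1a. Over the 17, the median difference was -0.10 for SB203580, -0.09 for SP600125 and -0.35 for U0126, against 0.01, 0.00 and 0.06 over all tested probe sets. These medians count probe sets, not genes. Bmpr1a gave 5 of the 17, which ran from -0.56 to -0.35 for U0126, so the U0126 median leans on 1 gene.

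**Figure D2:**
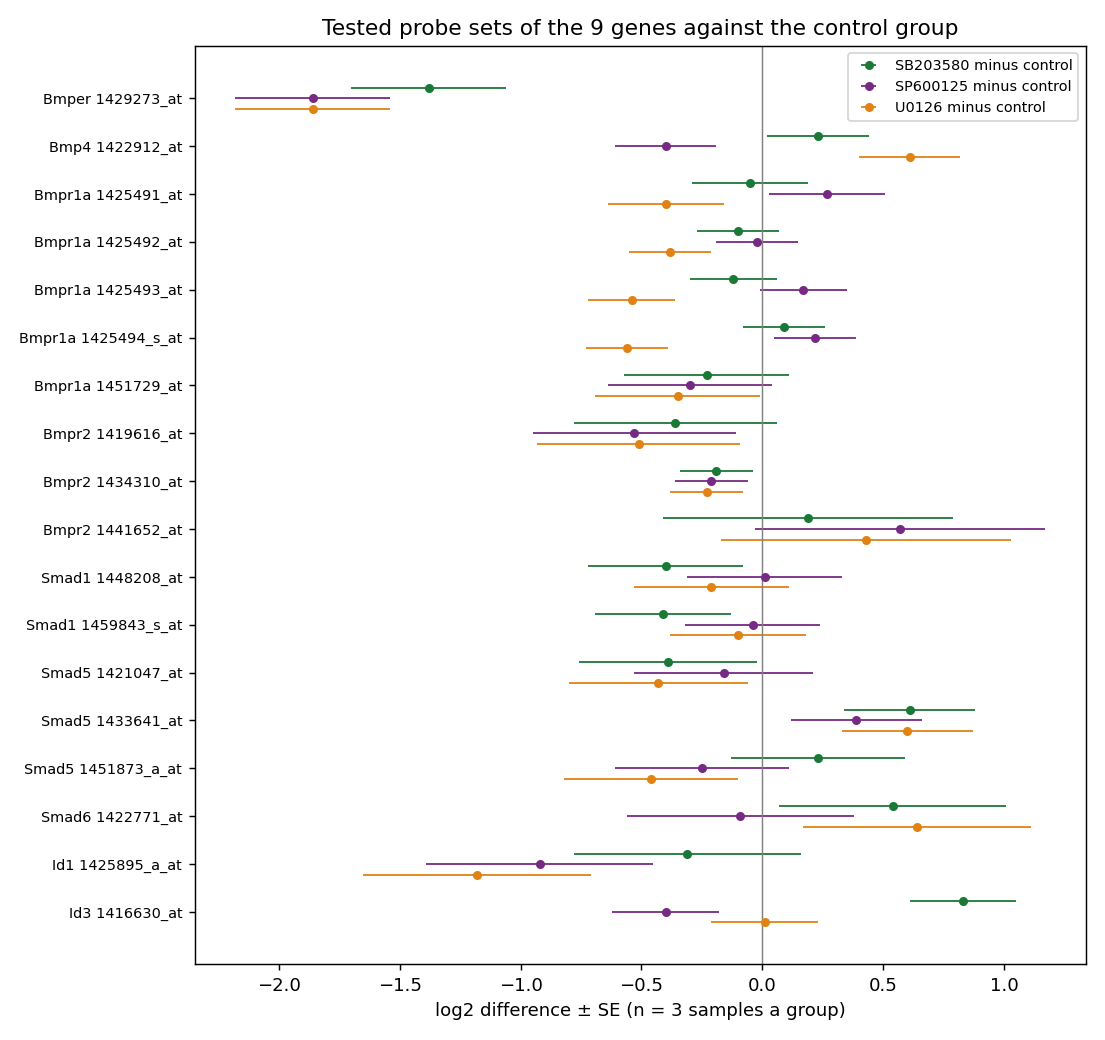
Log2 difference from the control group (x axis, points with SE bars, n = 3 samples per group) for the 18 tested probe sets of the 9 genes, by inhibitor. Bmper stands to the left for all 3 inhibitors, and the points of the other genes lie on both sides of 0.

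Bmp4, the ligand, was lower with SP600125 than with U0126. Its 430A signal was 1064.5 with U0126 and 392.1 with SP600125, beside 650.3 for control and 746.1 for SB203580. The 430 2.0 signals were 1448.0 and 1059.9 (U0126), 698.9 and 691.0 (SP600125), 1102.7 and 622.8 (control), and 868.7 and 1113.4 (SB203580). The SP600125 samples all lay under the U0126 samples of their array type, while the 2 controls of the 430 2.0 arrays were far apart and spanned the SP600125 values.

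The difference of SP600125 from U0126 was -1.02 ± 0.21 (adjusted p = 0.015), and -1.41 for replicate 1. SP600125 replicates 2 and 3 stood at -0.81 and -0.83 from the mean of the U0126 pair on 430 2.0. These values do not show the spread of that pair. In this comparison 2.93% of all probe sets passed. From lowest to highest the order was SP600125, control, SB203580 and U0126, and no neighbours in it differed beyond their spread, with SP600125 at -0.40 ± 0.21 (95% interval -0.86 to 0.05, adjusted p = 0.654) and SB203580 at 0.23 ± 0.21 (-0.22 to 0.68, adjusted p = 0.819) from control. U0126 stood 0.61 ± 0.21 above control (0.16 to 1.07), which did not pass (adjusted p = 0.248), and 0.39 ± 0.21 above SB203580 (-0.06 to 0.84, adjusted p = 0.462).

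Inner cell mass and epiblast markers differed between the same groups. Their median over 6 genes was 0.65 with U0126 and -0.07 with SP600125, each from control. With U0126, Fgf4 (1.33 ± 0.20) and Sox2 (0.87 ± 0.14) rose, and Klf2 stood at 0.80 ± 0.25 without passing. Not every marker was higher, with Nanog at -0.34 ± 0.20, which did not pass. The median was -0.74 for SP600125 from U0126, where Fgf4 (-1.68 ± 0.20), Sox2 (-1.05 ± 0.14) and Tdgf1 (-0.71 ± 0.14) were lower and Nanog (0.92 ± 0.20) was higher. All 4 passed, and the sign of the median was the same under both other scalings. Primitive endoderm markers had a median of -0.66 in this comparison, with Col4a2 (-1.0 ± 0.17) and Pdgfra (-0.77 ± 0.15) lower and Gata6 (0.81 ± 0.12) higher. The part of these markers in Bmp4 was not tested. Of the uterine and oviduct list only Ovgp1 and Pgr were bright enough for a test, and they stood at 0.83 ± 0.34 and 0.38 ± 0.68 here, and at 1.03 ± 0.34 and 0.49 ± 0.68 for SP600125 against SB203580, with none passing. The Bmp4 call was lost on the 430 2.0 arrays alone (-0.82, adjusted p = 0.155) and with median centring (-0.87, adjusted p = 0.0785).

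Bmpr1a, a type I receptor kinase, was higher with SP600125 than with U0126. The brightest of its 6 probe sets (1425492_at) read 850.2, 886.5, 812.8 and 692.3 on the 430A arrays for control, SB203580, SP600125 and U0126. Its 430 2.0 signals were 2419.9 and 1771.9 (control), 1823.0 and 1829.7 (SB203580), 2170.3 and 1991.9 (SP600125), and 1884.4 and 1262.3 (U0126). SP600125 samples lay above those of U0126 on each array type, the controls spanned both SP600125 values, and the difference of SP600125 from U0126, 0.36 ± 0.17, did not pass (adjusted p = 0.271).

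The probe sets 1425494_s_at and 1425493_at did pass for SP600125 against U0126, with 0.78 ± 0.17 (adjusted p = 0.0197) and 0.71 ± 0.18 (adjusted p = 0.0398). Signals of 1425494_s_at were 769.1, 887.3, 1042.3 and 424.3 on the 430A arrays, in the same order of groups. The 430 2.0 pairs were 1547.4 and 1726.7 (control), 1612.5 and 1727.8 (SB203580), 1659.1 and 1892.4 (SP600125), and 1050.9 and 1413.3 (U0126). Both U0126 values lay under the other 6 of those arrays. For 1425493_at the 430A signals were 504.4, 488.3, 722.5 and 393.2, and the 430 2.0 signals were 1421.5 and 1543.9, 1319.6 and 1333.3, 1345.5 and 1624.5, and 771.3 and 1162.5, with U0126 lowest on each array type.

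The probe set 1425491_at stood at 0.67 ± 0.24 for SP600125 against U0126 (adjusted p = 0.143), and a dimmer one, 1451729_at, at 0.06 ± 0.34 (adjusted p = 0.954). All 5 tested Bmpr1a probe sets were negative for U0126 against control, from -0.56 to -0.35, and also under both other scalings, but none passed, with the lowest adjusted p = 0.186 for 1425494_s_at. These probe sets read the same gene and are not separate evidence. Of the 17 tested probe sets, then, 3 passed for SP600125 against U0126, 2 higher and 1 lower, where 1.44% of all probe sets passed as higher and 1.49% as lower. None of the 3 passed without SP600125 replicate 1, U0126 replicate 1 or U0126 replicate 2, or on the 430 2.0 arrays alone. On those arrays the actin ratios were alike, but the Gapdh ratios ran from 2.84 to 4.8. In these fits the differences stayed between -0.94 and -0.82 for Bmp4, 0.54 and 0.75 for 1425494_s_at and 0.54 and 0.74 for 1425493_at. Without SP600125 replicate 3, 1 passed, that of Bmp4.

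**Figure D3:**
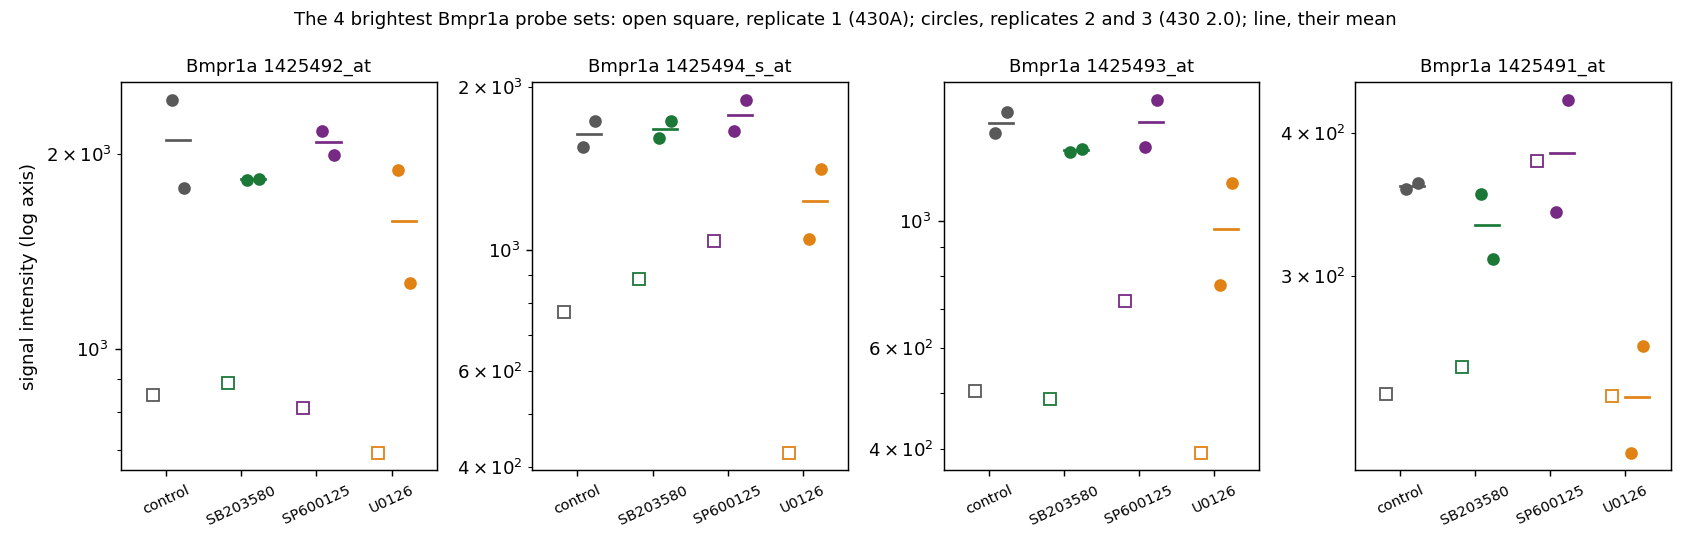
Signal intensity (log axis) of the 4 brightest Bmpr1a probe sets in each sample of the control, SB203580, SP600125 and U0126 groups, with open squares for replicate 1 (430A), filled circles for replicates 2 and 3 (430 2.0) and lines for their means. U0126 has the lowest 430 2.0 mean in all 4 panels.

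Bmpr2, the type II receptor kinase, showed no difference that passed. Its brightest probe set (1434310_at) read 6439.2 in the control and 4509.1 to 4888.6 with the inhibitors on the 430B arrays, but on the 430 2.0 arrays the controls, 1791.4 and 1527.6, lay within the treated range of 1330.8 to 1828.7. Differences from control were -0.19 ± 0.15 for SB203580, -0.21 ± 0.15 for SP600125 and -0.23 ± 0.15 for U0126, with 95% intervals from -0.55 at the lowest to 0.13 at the highest. The probe set 1441652_at disagreed between array types. On 430B it read 92.7 in the control against 564.8 to 677.3 with the inhibitors, and on the 430 2.0 arrays 67.1 and 87.2 in the controls against 21.5 to 73.0. The third, 1419616_at, read 121.6 in the control and 32.9 to 63.3 with the inhibitors on the 430A arrays, and 109.0 and 113.9 against 73.9 to 134.8 on the 430 2.0 arrays.

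Smad1 and Smad5, the transducers that the type I receptors phosphorylate, did not pass in any comparison. For Smad1 the brightest probe set (1448208_at) read 169.5 to 200.4 over the groups on the 430A arrays, and 273.7 and 470.6 in the controls against 185.2 to 442.9 with the inhibitors on the 430 2.0 arrays. Its differences from control were -0.40 ± 0.32 for SB203580, 0.01 ± 0.32 for SP600125 and -0.21 ± 0.32 for U0126, with 95% intervals reaching from -1.07 to 0.69. The other tested Smad1 probe set, 1459843_s_at, gave -0.41 ± 0.28, -0.04 ± 0.28 and -0.10 ± 0.28. Both fitted differences were lowest with SB203580, within the spread of the replicates.

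Smad5 probe sets did not move together. The brightest, 1433641_at, read 355.6 in the control and 789.3, 412.6 and 607.7 with SB203580, SP600125 and U0126 on the 430B arrays. Its 430 2.0 signals were 132.3 and 196.1 (control), 188.3 and 233.2 (SB203580), 233.3 and 229.2 (SP600125), and 258.8 and 218.5 (U0126). The differences, 0.61 ± 0.27, 0.39 ± 0.27 and 0.60 ± 0.27, had the same sign in all replicates of each group and did not pass (adjusted p = 0.475, 0.785 and 0.382). For the other 2 probe sets, 1421047_at and 1451873_a_at, differences from control ran from -0.46 to 0.23 and none passed.

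Smad6, the inhibitory Smad that BMP signals induce, was dim. It read 163.8, 137.5, 122.8 and 99.4 on the 430A arrays for control, SB203580, SP600125 and U0126. The 430 2.0 signals were 54.4 and 19.6 (control), 98.3 and 57.8 (SB203580), 33.9 and 38.0 (SP600125), and 87.4 and 116.2 (U0126). The array types disagreed: with U0126 the 430A signal was the lowest of the groups and the 430 2.0 mean the highest. The fitted differences were 0.54 ± 0.47 for SB203580 (95% interval -0.46 to 1.54), -0.09 ± 0.47 for SP600125 (-1.09 to 0.92) and 0.64 ± 0.47 for U0126 (-0.36 to 1.64), and none passed.

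Id1 and Id3 encode helix-loop-helix proteins that block the DNA binding of other transcription factors and are widely used as readouts of BMP signalling, yet their patterns here were unlike. Id3 was highest with SB203580. Its 430A signal was 544.4 with SB203580, against 275.4 for control, 201.7 for SP600125 and 290.6 for U0126. The 430 2.0 signals were 925.4 and 1586.3 (SB203580), 645.1 and 778.7 (control), 665.5 and 440.3 (SP600125), and 693.5 and 702.8 (U0126). The SB203580 samples lay above every other sample of their array type.

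For Id3 the difference of SP600125 from SB203580 was -1.22 ± 0.22 (adjusted p = 0.0116), and -1.38 for replicate 1. SP600125 replicates 2 and 3 stood at -0.85 and -1.44 from the mean of the SB203580 pair on 430 2.0. These values do not show the spread of that pair. Id3 was the only one of the 17 probe sets to pass in this comparison, where 0.788% of all probe sets passed and 0.226% passed as lower; at an unadjusted p under 0.05 there were 2 of 17, against 10.6% of all. From lowest to highest the order was SP600125, control, U0126 and SB203580. SP600125 lay 0.40 ± 0.22 below control (95% interval -0.86 to 0.07 for the difference, adjusted p = 0.687), and U0126 differed from control by 0.01 ± 0.22 (-0.45 to 0.47, adjusted p = 0.994). SB203580 stood 0.83 ± 0.22 above control (0.36 to 1.29) without passing (adjusted p = 0.14), and U0126 stood at -0.82 ± 0.22 from SB203580 (adjusted p = 0.0829). In that last comparison 0 of 17 passed, where 1.37% of all probe sets did, and limma gave 3 of 17 at an unadjusted p under 0.05, against 13.3% of all.

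The Id3 call was lost on the 430 2.0 arrays alone (-1.14, adjusted p = 0.0974) and without SB203580 replicate 1 or 3 or SP600125 replicate 1 or 3, where the difference was -1.16, -1.04, -1.18 and -1.09 and the adjusted p 0.0602, 0.0896, 0.0543 and 0.0902. Over all alternatives the difference stayed between -1.45 and -1.04. Primitive endoderm markers had a median of -0.61 for SP600125 against SB203580, and Pdgfra, the growth factor receptor of that lineage (-1.41 ± 0.15, adjusted p = 0.000143), passed as lower with Col4a1 (-0.81 ± 0.16) and Col4a2 (-0.79 ± 0.17), 3 of 16. The part of these markers in the Id3 values was not tested.

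Id1 was dimmer, and its order was another one. It read 153.7, 77.0, 98.4 and 100.1 on the 430A arrays for control, SB203580, SP600125 and U0126. The 430 2.0 signals were 112.9 and 179.1 (control), 121.7 and 162.1 (SB203580), 48.1 and 74.2 (SP600125), and 20.9 and 77.7 (U0126). All SP600125 and U0126 samples lay under the controls of their array type. The differences from control were -0.92 ± 0.47 for SP600125 (95% interval -1.92 to 0.07, adjusted p = 0.631), -1.18 ± 0.47 for U0126 (-2.18 to -0.19, adjusted p = 0.318) and -0.31 ± 0.47 for SB203580 (-1.30 to 0.68, adjusted p = 0.898), and none passed. The pair of replicates with U0126 on the 430 2.0 arrays lay far apart, at -2.21 and -0.78 from the control mean.

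The rest of the pathway was read through a list of 68 further genes, of which 64 were on the arrays with a probe set of their own and 42 were tested by their brightest probe set. None of the 42 passed against control for SB203580, SP600125 or U0126, where 0.634%, 0.904% and 0.658% of all tested genes did. At an unadjusted p under 0.05, limma gave 6, 6 and 8 of them, against 11.4%, 10.2% and 13.4% of all genes. Their median difference was -0.09, 0.04 and -0.02, beside 0.01, 0.00 and 0.05 over all genes.

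By class, the tested genes were 7 ligands, 9 receptors and coreceptors, Smad4 as the only other transducer, 8 secreted antagonists and modulators, 10 intracellular and membrane inhibitors and 7 targets. With SB203580 the largest statistics belonged to Bambi, a membrane decoy receptor that blocks BMP and TGF-beta receptors, at 0.95 ± 0.24 (adjusted p = 0.107), and Ppm1a, a phosphatase gene, at 0.47 ± 0.12 (adjusted p = 0.124). Bambi read 320.4 on the 430A array and 1022.8 and 767.3 on the 430 2.0 arrays with SB203580, against 225.5, 301.2 and 487.7 in the controls. Like Id3, it was highest with SB203580 on each array type, and it stood at -0.98 ± 0.24 for U0126 against SB203580 (adjusted p = 0.0506).

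With SP600125 the largest statistics belonged to Msx1, a homeobox target of BMP signals, at -1.07 ± 0.43 (adjusted p = 0.477), and Smurf2, a ubiquitin ligase gene of the pathway, at 0.37 ± 0.15 (adjusted p = 0.495). Msx1 was also first with U0126, at -1.19 ± 0.43 (adjusted p = 0.269), followed by Chrdl2, which encodes a chordin-like secreted protein, at 1.22 ± 0.44 (adjusted p = 0.275). Chrdl2 stood at 1.06 ± 0.44 with SB203580 and 1.01 ± 0.44 with SP600125, also without passing. Its 430 2.0 controls read 15.0 and 15.4, near the added constant of 12.6, and on 430A it read 105.1 in the control and 132.8 with U0126. Msx1 read 603.6 in the control and 214.2, 170.9 and 68.2 with SB203580, SP600125 and U0126 on the 430A arrays. The 430 2.0 signals were 261.1 and 260.3 (control), 240.0 and 174.7 (SB203580), 162.3 and 143.9 (SP600125), and 132.8 and 314.5 (U0126), so that 1 U0126 sample lay above the controls.

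Between inhibitors, 1 of the 42 passed. Ctdspl, a phosphatase gene of the family that removes phosphate from Smads, was lower with SP600125 than with U0126 (-0.97 ± 0.22, adjusted p = 0.0218), where 4% of all tested genes passed. Its signal was 171.2, 313.3 and 315.4 with SP600125 against 286.6, 672.1 and 711.2 with U0126, and 214.9, 369.6 and 553.1 in the controls, for replicates 1, 2 and 3. Each SP600125 sample lay under the U0126 samples of its array type, with only 1 sample per group on 430A. The call was lost, at -0.96 to -0.92, without SP600125 replicate 2 or 3 or U0126 replicate 2 or 3, and also on the 430 2.0 arrays alone (-1.11, adjusted p = 0.0509). No gene of the list passed for SP600125 or U0126 against SB203580 (Bambi was past the threshold for U0126 in 7 alternatives), where 1.06% and 1.96% of all tested genes did.

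**Figure D4:**
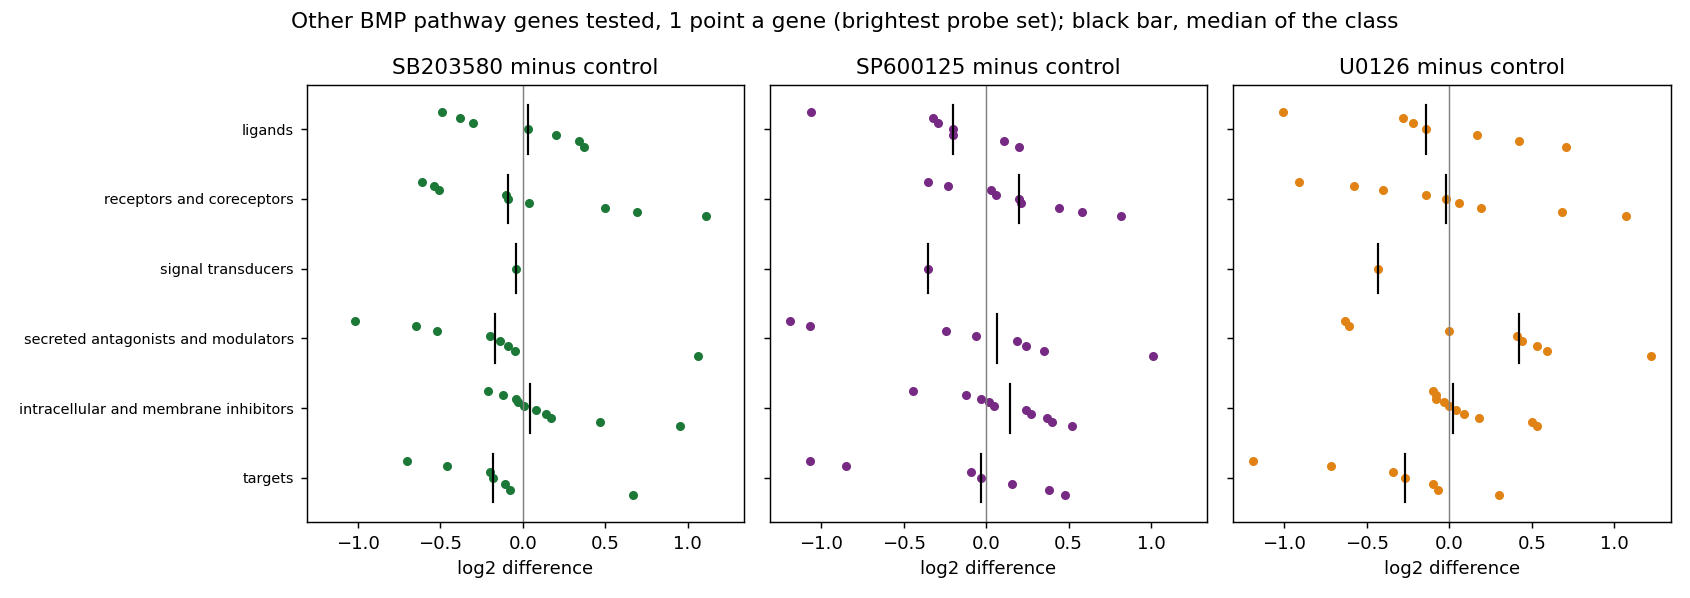
Log2 difference from the control group (x axis) of the 42 other BMP pathway genes tested, 1 point per gene by its brightest probe set, in rows by class, with 1 panel per inhibitor and black bars for class medians. No point passed the test, and the points lie on both sides of 0 in every class but that of Smad4 alone.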

How the data were processed

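Expression was measured in 12 blastocyst samples on 16 Affymetrix arrays. The authors deposited linear signal intensity. The scaling target of each array was taken to be a trimmed mean of 500, with 2% trimmed at each end. Which software, background correction and probe summary made the deposited values was not stated in the labels used. The 430A and 430B arrays of replicate 1 were joined by group (the 100 probe sets on both entered with their 430A value), and control probe sets were left out. The log2 was taken after adding 12.6, the 20th percentile of the 430 2.0 values. Of 45037 probe sets, 34945 named 1 gene, 932 several and 9160 none in the annotation used. Those whose 430 2.0 mean reached the 40th percentile were tested.

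All 6 pairs of groups were fitted in 1 linear model with limma 3.58.1 in R 4.3.3, with array type as a fixed block and an intensity trend, giving 7 residual and 9.7 prior degrees of freedom. Tests are two-sided with Benjamini-Hochberg adjustment over 27022 probe sets. Arrays carry no count, and their number limits the precision. The named genes are all 9 members, pathway genes that passed in any comparison, otherwise the 2 with the largest moderated t in each comparison with control, and the 6 most like Bmper; for marker lists whose median moved by over 0.5 in a described comparison, the 3 with the largest moderated t. Nanog and the genes of the blood and immune cell list were named after their values were seen. Members and lists were chosen with earlier results of these data known.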

Additional observations from a re-analysis of the deposited data

How the results depend on the processing

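The member differences, the counts of calls and, chosen after seeing the data, the pathway counts between inhibitors and 37 calls of pathway and marker genes were recomputed under 10 other settings and 12 omissions of 1 sample; the likeness to Bmper was not. The counts against control kept their value of 0 in all of these, for the 17 probe sets and for the 42 pathway genes. For SP600125 against SB203580 the count of 1 became 0 on the 430 2.0 arrays alone and 0 without the intensity trend, and ran from 0 to 1 over the omissions. For SP600125 against U0126 the count of 3 became 0 in the same settings and ran from 0 to 3 over the omissions. For U0126 against SB203580 the count of 0 became 1 with median centring (Bmpr1a 1425494_s_at, -0.79, adjusted p = 0.0348) and ran from 0 to 1 over the omissions. Replicate 2 minus replicate 3 correlated between groups at 0.018 to 0.088 over the tested probe sets. These low values cannot settle whether samples of the same number belong together, since dim probe sets are included and replicate 1 is not. With the replicate number as a replicate block the counts of 1 and 3 did not change, no other member or pathway count changed, and all 37 calls of pathway and marker genes were kept. For the pathway list, the count of 1 for SP600125 against U0126 became 0 with median centring, on the 430 2.0 arrays alone and without the intensity trend, and ran from 0 to 1 over the omissions. Its count of 0 for U0126 against SB203580 became 1 (Bambi) with the constant doubled, the filter at the 60th percentile, quantile normalization, median centring and without _x_at and _s_at probe sets, and ran from 0 to 1 over the omissions. Of the 37 calls, 8 were kept in every alternative that held the probe set, 29 were lost in at least 1, and 0 changed sign. None of the 4 member differences that passed changed sign in any alternative, while 40 of the 98 that did not pass did in at least 1. The adjusted p over the alternatives ran from 0.00803 to 0.155 for Bmp4, 0.00737 to 0.199 for Bmpr1a 1425494_s_at, 0.026 to 0.179 for Bmpr1a 1425493_at and 0.00839 to 0.0989 for Id3. The omissions and the 430 2.0 arrays alone hold fewer samples; the cause of the other losses was not tested. Median centring moved the median of all probe sets for U0126 against control from 0.06 to -0.11, and the share of calls that were higher from 49.2% to 84.5% for SP600125 against U0126, 71.4% to 88.4% for SP600125 against SB203580, 61.2% to 32.4% for U0126 against SB203580, 38.8% to 11.5% for U0126 against control and 22.9% to 12.3% for SB203580 against control. Depth does not apply to arrays. Signal near the added constant limits Smad6, Id1 and Chrdl2.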
